A study of Meleagris gallopavo with 12 samples.

Results

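Mitochondrial ribosomal proteins are encoded in the nucleus, made in the cytosol and imported into mitochondria. There they join ribosomal RNA of the mitochondrial genome to form a ribosome with a large and a small subunit. This ribosome makes the few membrane proteins of the respiratory chain and ATP synthase that the mitochondrial genome encodes. Part of the proteins belong to families shared with bacterial ribosomes, and the others are found only in mitochondria. Neurons draw much of their energy from the respiratory chain.

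The probes described here are those chicken oligonucleotides whose name in the array files holds the words mitochondrial ribosomal protein. They were 51 of 20460 chicken probes and stood for 45 genes. By their known place in mammalian or bacterial ribosomes, 26 genes belong to the large subunit and 18 to the small one, while MRPS36 was later assigned to the 2-oxoglutarate dehydrogenase complex. MRPS18A and MRPS30 carry a small subunit name but sit in the large subunit in mammals, and were counted there. Of the 44 ribosomal genes, 26 belong to bacterial families (16 large, 10 small) and 18 are mitochondria-specific (10 large, 8 small). For 10 probes the file gave a locus number in place of a symbol, and 9 of these could be named from the description, leaving LOC421446, described as like MRPS18A. LOC421446 was counted as a separate gene of the large subunit and the bacterial families on that description alone. By symbol, 42 of the 45 genes were found in the turkey RefSeq annotation Turkey_5.1.

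RNA came from the premammillary nucleus, a cell group of the turkey hypothalamus whose neurons make dopamine and melatonin and take part in timing the breeding season. Short-day photosensitive hens (SDPS) lived under days of 6 h light with nights of 18 h. Long-day photosensitive hens (LDPS) had spent 10 days under 16 h light with nights of 8 h. Long-day photorefractory hens (LDPR), which no longer respond to long days, had passed a whole reproductive cycle and moult under long days, on a schedule whose hours the labels do not state. All were adult females, and each group had 4 pools of tissue from 6 hens. A pair of pools of different groups shared each of 6 arrays, so that 2 arrays set each pair of groups against each other directly, with the dyes swapped.

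Median spot amplitude ran from 92.7 to 277 over the 12 channels. Between 79.3% (LDPR pool 2) and 96.6% of chicken probes exceeded the 95th percentile of the empty spots. Of 7 dopamine and melatonin markers listed 4 were tested, and these, TH, SLC18A2, OPN4 and ASMT, were above that level in 12 of 12 channels. So were the pituitary markers GH1 and POMC and the red blood cell marker HBA1, so that this level does not tell tissues apart. Arrays are named by their pools, and the LDPS 3/LDPR 3 array was quantified later than the others. Turkey RNA was measured on chicken sequence, so levels of different probes were not compared. Pooling hides the spread between hens. The p-values measure the spread between pools and arrays, moderated towards the spread over all probes.

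Nearly all probes of the mitochondrial ribosome could be tested. Of the 51 probes, 50 lay above the empty spots in 12 of 12 channels, were present on 6 of 6 arrays and were tested. The remaining one, the MRPS18A probe RIGG03644, was above empty spots in 6 channels and usable on 1 array, and a second MRPS18A probe was tested. All 45 genes were therefore represented, with 30 probes of the large subunit, 19 of the small subunit and 1 of MRPS36. In single channels 79.3% to 96.6% of all chicken probes lay above the empty spots, and their share in 12 of 12 channels was not counted. Of all 20460 chicken probes, 16748 were present on 6 of 6 arrays and 18012 were tested.

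In the 3 comparisons 0 of the 50 probes passed an adjusted p of 0.05 (limma, Benjamini-Hochberg over all 18012 tested probes). The shares called over all probes were 0% for LDPS against SDPS, 0.0167% for LDPR against LDPS and 0% for LDPR against SDPS. A test for any difference among the 3 groups called 0 members, against 0.0111% of all probes. Its lowest unadjusted p-values among the members were 0.0308 for MRPL10 (adjusted p = 0.426) and 0.0331 for MRPS6 (adjusted p = 0.429), and these were the 2 members under 0.05, where 10.7% of all probes were. In bulk tissue, fewer cells of a type and less RNA per cell cannot be told apart.

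The 95% interval of the fold change lay within 1.5-fold in either direction for 50 of 50 members in LDPS against SDPS, for 49 in LDPR against LDPS and for 49 in LDPR against SDPS. Over all tested probes these shares were 96.1%, 89.6% and 91%. The median size of a member's log2 fold change was 0.07, 0.09 and 0.08 in that order, where all probes gave 0.08, 0.12 and 0.10. The median distance from the estimate to an end of its interval was 0.24 for members and 0.25 for all probes. Moderation draws such widths together, and the number of arrays limits this precision.

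**Figure D1:**
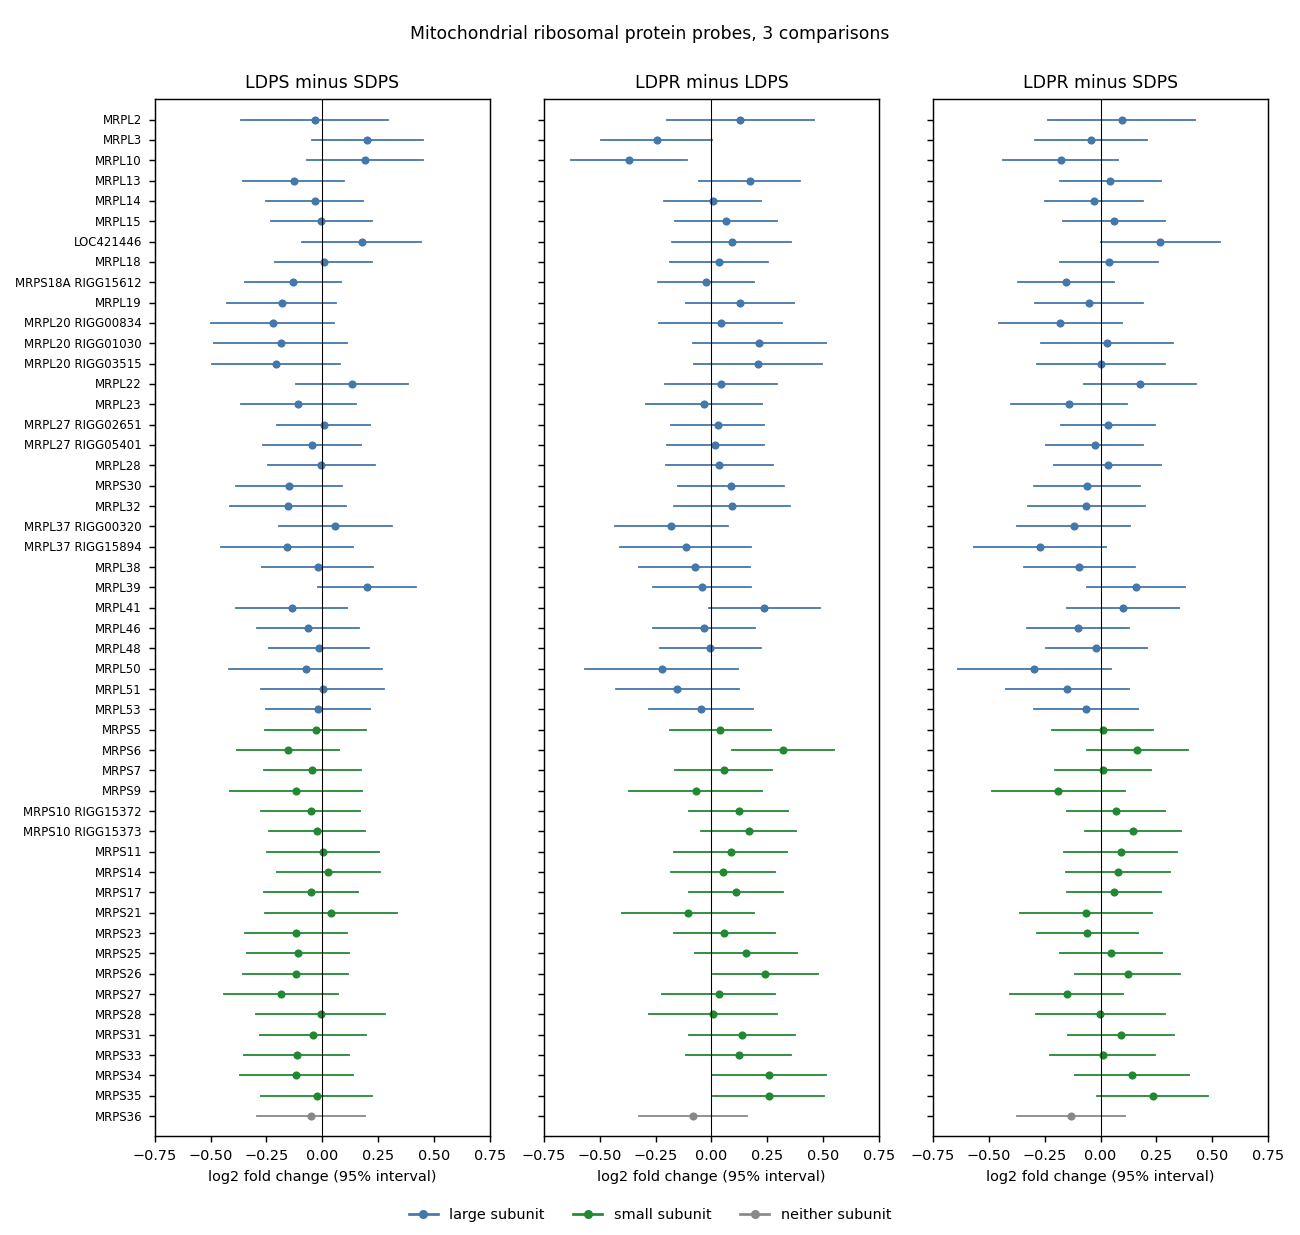
Log2 fold change (x axis, with its 95% interval) of each of the 50 tested probes (y axis) in the 3 comparisons, blue for the large subunit, green for the small subunit and grey for MRPS36. Values lie between -0.37 and 0.32, and in LDPR minus LDPS 17 of 19 small subunit probes lie above 0.

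The first comparison asked what 10 long days altered in photosensitive birds. Of the 50 members, 12 had positive and 38 negative log2 fold changes for LDPS against SDPS, with a median of -0.04 and a range from -0.22 to 0.20. Of all tested probes 46.7% were positive and 53.3% negative, and their median was -0.01. The large subunit had 21 of 30 probes below 0 (median -0.03) and the small subunit 16 of 19 (median -0.05). With 1 probe per gene, 34 of 45 were negative. No member reached an unadjusted p of 0.05 (0 of 50), where 4.33% of all probes did (3.02% higher, 1.31% lower). With the replicate number as a block, in a fit of separate channels, 7 of 50 members had such a p, where 11.4% of all probes had, and 0 passed after adjustment. The count of 0 became 3 without the LDPS 2/SDPS 2 array, 4 without the LDPR 2/SDPS 4 array and 3 without the LDPR 4/LDPS 4 array, where 9.33%, 6.03% and 4.13% of all probes had such a p. It became 1 without the SDPS 1/LDPS 1 array (3.85% of all probes).

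The SDPS 1/LDPS 1 array gave a member median of -0.07 and the LDPS 2/SDPS 2 array a median of -0.03. On both arrays 18 of 50 members were below 0 and 7 were above 0, where 24.1% and 22.6% of all probes with both values were. The small subunit median was -0.16 on the first array and -0.05 on the second. The members of the cytosolic ribosome, 48 probes, were at -0.17 on the first array and at 0.07 on the second.

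None of the red blood cell or astrocyte and tanycyte markers passed after adjustment in this comparison. All 3 red blood cell markers tested were higher in LDPS at an unadjusted p of 0.05 (median log2 fold change 0.66), and their summed level was 12.60 to 12.77 in SDPS and 12.58 to 13.71 in LDPS. Of 8 astrocyte and tanycyte markers, 5 were below 0 (median -0.20), and 4 of these, SLC1A3, AQP4, VIM and GJA1, were lower at that p. Their summed level was 14.27 to 14.61 in SDPS and 14.42 to 14.59 in LDPS. All 3 choroid plexus and ependyma markers tested were below 0 (median -0.03, lowest -0.76). The part of these markers in the members' values was not tested.

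MRPL20, which in bacteria is needed to assemble the large subunit, was measured by 3 probes, which gave the 3 lowest fold changes of this comparison. Probe RIGG00834 read 10.90, 10.91, 10.64 and 10.83 (normalised log2 intensity) in SDPS pools 1 to 4. It read 10.69, 10.67, 10.11 and 11.01 in LDPS pools 1 to 4. The highest and the lowest of these 8 values were both LDPS pools, and the groups overlapped. The fitted log2 value was -0.22 with an SE of 0.12 and an unadjusted p of 0.102, and the direct arrays gave -0.22 and -0.24. Probe RIGG03515 averaged 8.70 ± 0.39 in SDPS and 8.42 ± 0.03 in LDPS (SD, n = 4 pools each), a log2 fold change of -0.21 (SE 0.13). Probe RIGG01030 averaged 8.92 ± 0.45 and 8.66 ± 0.34 (SD, n = 4 pools each), a log2 fold change of -0.19 (SE 0.13). All 3 probes were lower in LDPS on both direct arrays, and none passed (limma, adjusted p = 1.0 for each). With 1 array left out their values ran from -0.37 (without LDPS 2/SDPS 2) to -0.06 (without SDPS 1/LDPS 1) for RIGG00834. They ran from -0.29 (without LDPR 2/SDPS 4) to -0.03 (without LDPS 2/SDPS 2) for RIGG01030 and from -0.31 (without LDPR 4/LDPS 4) to -0.09 (without SDPS 1/LDPS 1) for RIGG03515.

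MRPS27, a pentatricopeptide repeat protein of the small subunit, was the 1 member whose LDPS and SDPS pools did not overlap, and it was picked out for that. It read 10.07, 10.07, 10.12 and 10.14 in SDPS pools 1 to 4 and 9.81, 9.88, 10.00 and 9.89 in LDPS pools 1 to 4. Every LDPS pool was thus below every SDPS pool, as for 0.316% of all probes (0.761% lay higher without overlap). In the other comparisons 0 members had groups that did not overlap, where the shares of all probes were 0.516% higher and 1.83% lower for LDPR against LDPS and 0.394% higher and 0.833% lower for LDPR against SDPS. The log2 fold change was -0.18 (SE 0.11), with an adjusted p of 1.0 (limma). The LDPR pools, at 10.28, 9.75, 10.24 and 9.65, lay on both sides of the other groups.

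On the higher side, MRPL39, a mitochondria-specific protein of the large subunit, was at 0.20 on the log2 scale with an SE of 0.10 and an unadjusted p of 0.0675, with direct arrays at -0.06 and 0.57. MRPL3, which lies near the peptidyl transferase centre, had 0.20 (SE 0.11) with direct arrays at 0.30 and 0.16. MRPL10, at the base of the stalk that recruits translation factors, had 0.19 (SE 0.12) with direct arrays at 0.13 and 0.32, and 0.04 without the LDPS 2/SDPS 2 array. MRPL39 was at 0.13 without that array. MRPL39 read 8.63, 8.42, 9.32 and 8.43 in SDPS and 8.57, 8.99, 8.73 and 9.11 in LDPS pools 1 to 4. MRPL3 read 9.57, 9.56, 9.73 and 9.71 in SDPS and 9.87, 9.72, 9.98 and 9.65 in LDPS pools 1 to 4. The pools of the groups overlapped for each of these genes, and none passed.

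LDPR and LDPS hens shared long days and differed in whether they still responded to them. They also differed in reproductive history, moult and time spent under long days, and these cannot be told apart from the response. Of the 50 members, 34 were above 0 and 16 below 0 in LDPR against LDPS, with a median log2 fold change of 0.04, where 48.3% of all probes were above and 51.7% below 0 and the median was -0.01. Of the small subunit probes 17 of 19 were above 0 (median 0.11), and of the large subunit probes 17 of 30 (median 0.02). Probes of bacterial families had 24 of 30 above 0 (median 0.05) and mitochondria-specific ones 10 of 19 (median 0.03). In the same order, 21 of 30 and 16 of 19 were below 0 for LDPS against SDPS. For LDPR against SDPS 17 of 30 and 8 of 19 were above 0. Neither the difference between the subunits nor that between the families was tested.

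At an unadjusted p of 0.05, 4 members were higher in LDPR and 1 was lower, 5 in all, where 13.9% of all probes passed (4.96% higher, 8.98% lower). The 4 higher ones were MRPS6, MRPS35, MRPS26 and MRPS34, all of the small subunit, and the lower one was MRPL10. The count of 5 became 2 without the LDPR 2/SDPS 4 array and 2 without the LDPS 3/LDPR 3 array, where 12.1% and 6.44% of all probes had such a p. It became 3 without the LDPS 2/SDPS 2 array, 3 without the SDPS 3/LDPR 1 array and 8 without the LDPR 4/LDPS 4 array, where 13.6%, 12.8% and 11.2% of all probes did.

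MRPL10 read 8.78, 8.37, 7.90 and 8.59 in SDPS pools 1 to 4 and 8.91, 8.69, 8.70 and 8.12 in LDPS pools 1 to 4. It read 7.95, 8.11, 8.45 and 7.70 in LDPR pools 1 to 4. LDPS pools 1, 2 and 3 lay above every LDPR pool, while LDPS pool 4 lay within their range. The log2 fold change for LDPR against LDPS was -0.37 (SE 0.12), or 0.774-fold, the largest in size of any member in any comparison. Both direct arrays were negative, at -0.25 and -0.42, and the adjusted p was 0.236 (limma, unadjusted p = 0.0100). LDPR against SDPS gave -0.18 (SE 0.12).

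MRPS6, which lies on the platform of the small subunit, read 11.21, 10.84, 10.81 and 10.57 in SDPS pools 1 to 4. It read 10.98, 10.67, 10.72 and 10.56 in LDPS pools and 10.81, 10.99, 10.96 and 10.88 in LDPR pools 1 to 4. All 4 LDPR pools lay above LDPS pools 2, 3 and 4, and LDPS pool 1 lay among the LDPR pools. The log2 fold change for LDPR against LDPS was 0.32 (SE 0.10), or 1.25-fold. The direct arrays gave 0.24 and 0.32, and the adjusted p was 0.239 (limma, unadjusted p = 0.0108).

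**Figure D2:**
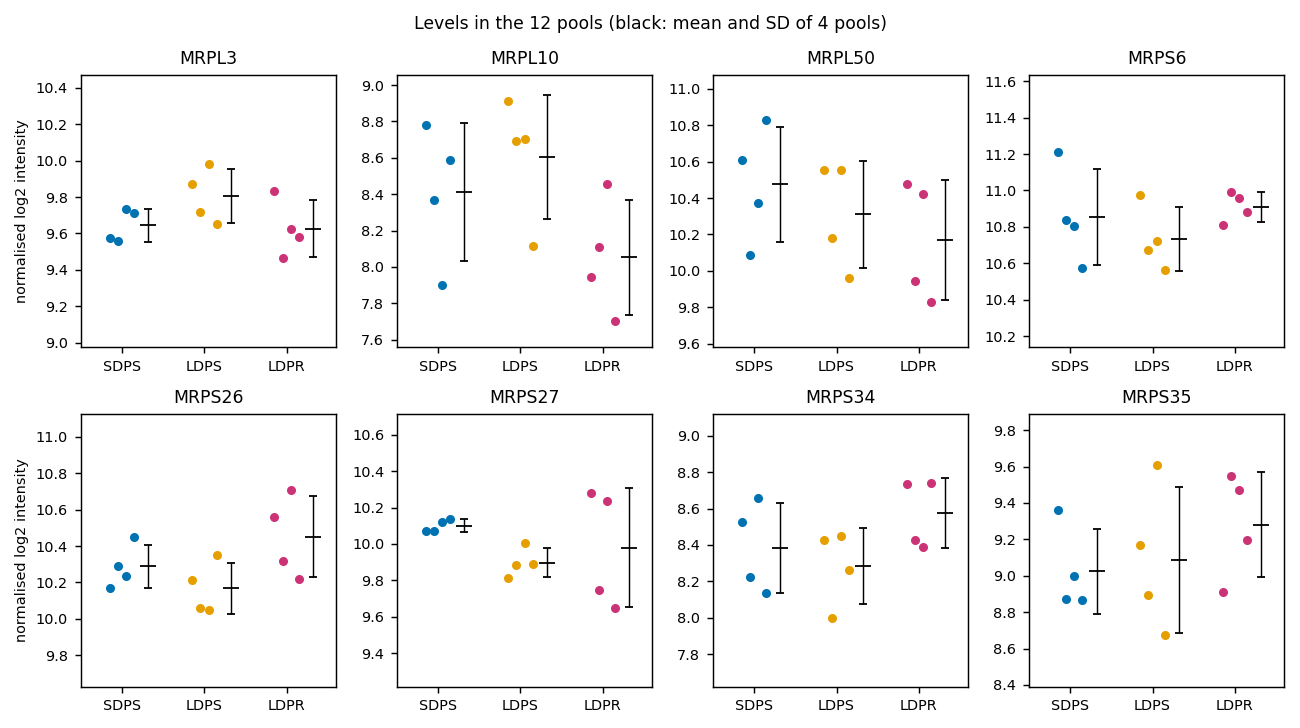
Normalised log2 intensity (y axis) in each of the 4 pools of SDPS, LDPS and LDPR, 1 panel per probe, with the mean and SD in black and y axes of equal span. Shown are MRPL3, MRPL10, MRPL50, MRPS6, MRPS26, MRPS34, MRPS35 and MRPS27. The LDPS pools of MRPS27 (up to 10.00) lie below its SDPS pools (from 10.07).

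The other 3 higher small subunit genes are mitochondria-specific. MRPS35 read 9.17, 8.90, 9.61 and 8.67 in LDPS pools 1 to 4 and 8.91, 9.55, 9.47 and 9.20 in LDPR pools 1 to 4. The highest value was an LDPS pool, and the groups overlapped. Its log2 fold change was 0.26 (SE 0.11, adjusted p = 0.342 by limma), and the direct arrays differed in sign, at -0.13 and 0.52. MRPS26 read 10.21, 10.06, 10.05 and 10.35 in LDPS and 10.56, 10.32, 10.71 and 10.22 in LDPR pools, with overlap. Its log2 fold change was 0.24 (SE 0.11, adjusted p = 0.347 by limma), and its direct arrays were at 0.66 and -0.13. MRPS34 read 8.43, 8.00, 8.45 and 8.26 in LDPS and 8.74, 8.43, 8.39 and 8.74 in LDPR pools, again with overlap. Its log2 fold change was 0.26 (SE 0.11, adjusted p = 0.354 by limma), with direct arrays at -0.06 and 0.48. Of these 5 genes, MRPL10 and MRPS6 had both direct arrays on the side of the fitted value. Without the LDPS 3/LDPR 3 array MRPS26 was at 0.13 and MRPS34 at 0.40.

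MRPL3 and MRPL50, also of the large subunit, stood at the lower end. MRPL41 of the same subunit was higher in LDPR, at 0.24 (SE 0.11, adjusted p = 0.373 by limma), with direct arrays at 0.19 and 0.41. MRPL3 read 9.87, 9.72, 9.98 and 9.65 in LDPS and 9.84, 9.47, 9.63 and 9.58 in LDPR pools 1 to 4, and the groups overlapped. Its log2 fold change was -0.24 (SE 0.11, adjusted p = 0.366 by limma), with direct arrays at -0.35 and -0.07. It was at -0.15 without the LDPS 3/LDPR 3 array and at -0.38 without the LDPR 4/LDPS 4 array. MRPL50, a mitochondria-specific protein, had -0.22 (SE 0.15, adjusted p = 0.537 by limma), with both direct arrays at -0.13. It was at -0.07 without the LDPR 2/SDPS 4 array, at -0.12 without the LDPS 2/SDPS 2 array and at -0.38 without the LDPR 4/LDPS 4 array. It read 10.55, 10.18, 10.55 and 9.96 in LDPS pools 1 to 4, and the groups overlapped.

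Member medians on the direct arrays were 0.05 (LDPS 3/LDPR 3) and 0.06 (LDPR 4/LDPS 4). Of the 50 members, 19 were above 0 on both arrays and 4 were below 0 on both, where 24% and 23.5% of all probes were. The small subunit medians were 0.06 and 0.17, and the large subunit medians were 0.04 and 0.04. Over all processing alternatives the small subunit median ran from 0.07 to 0.13 and the large subunit median from -0.03 to 0.03, so the latter had no stable sign.

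Among the lists of cell type markers, the summed levels of 3 did not overlap between these groups, by narrow gaps. How often sums of other probes would not overlap was not tested. Such sums follow the brightest probes most and carry the brightness of the array, so they do not measure the amount of a cell type. Those of the neuron, dopamine and melatonin, endothelium and mural, and pituitary lists overlapped. The summed level of the 3 red blood cell markers tested of 8 listed was 12.58 to 13.71 (log2) in LDPS and 11.97 to 12.53 in LDPR. All 3 were below 0 (median -0.80), and 2 were lower at an unadjusted p of 0.05. That of 8 of 10 astrocyte and tanycyte markers was 14.42 to 14.59 in LDPS and 14.20 to 14.37 in LDPR. Single markers of that list were divided, with 4 above and 4 below 0 (median 0.03), and at an unadjusted p of 0.05 SLC1A3, AQP4 and VIM were higher in LDPR and S100B was lower. The summed level of 4 of 10 microglia and immune markers was 9.413 to 10.01 and 9.233 to 9.409. For 3 of 8 oligodendrocyte markers the ranges overlapped, at 11.58 to 12.25 in LDPS and 11.32 to 11.72 in LDPR. Of these single markers 2 were below 0 and 1 above (median -0.36), and the 2 were lower at an unadjusted p of 0.05. No red blood cell or oligodendrocyte marker passed after adjustment. All 3 of 6 choroid plexus and ependyma markers tested were above 0 (median 0.27, highest 2.33), and their summed levels overlapped, at 9.23 to 9.62 in LDPS and 9.38 to 10.41 in LDPR. Within these lists all markers but the immune marker PTPRC and the pituitary markers PRL and FSHB lay above empty spots in 12 of 12 channels. The part of these markers in the members' values in this comparison was not tested.

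**Figure D3:**
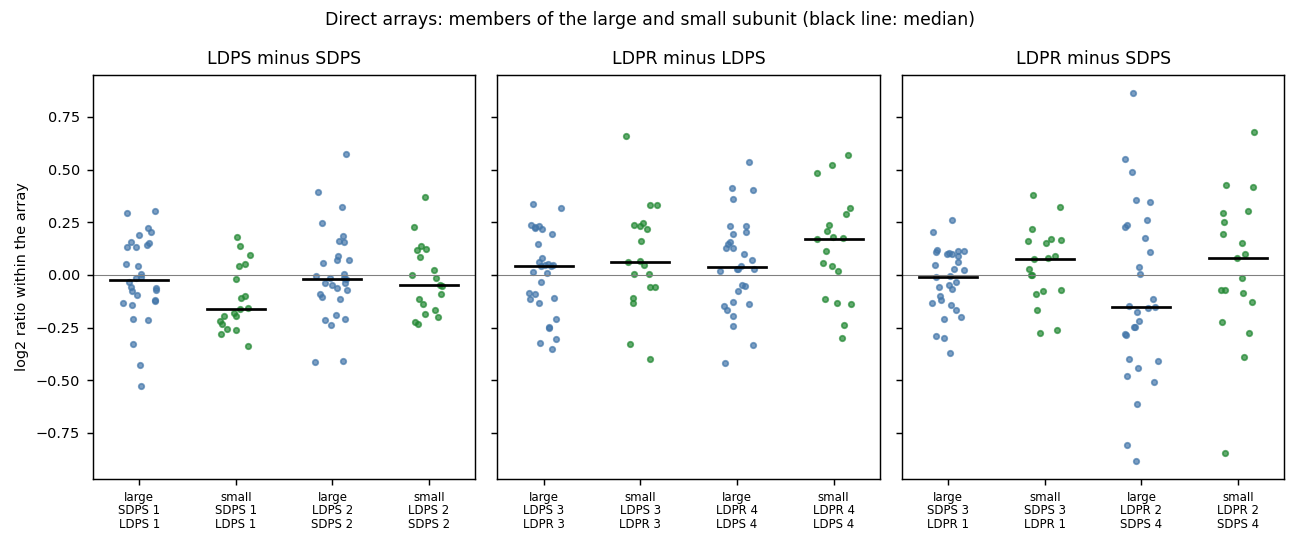
Log2 ratio within each direct array (y axis) for large subunit (blue, 30 probes) and small subunit (green, 19 probes) members, with the median as a black line, for the 3 comparisons. Ratios reach from -0.88 to 0.86 on the LDPR 2/SDPS 4 array, where the large subunit median is -0.15 and the small subunit median 0.08.

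The third comparison set LDPR against SDPS, which differ in day length and in reproductive history. Members were evenly divided, 25 above and 25 below 0, with a median of 0.00, where 46% of all probes were above and 54% below 0 and the median was -0.01. The small subunit had 14 of 19 above 0 (median 0.06) and the large subunit 11 of 30 (median -0.04). No member (0 of 50) had an unadjusted p under 0.05, where 9.37% of all probes had (3.48% higher, 5.89% lower). The 3 choroid plexus and ependyma markers tested were above 0 here (median 0.25, highest 1.57). Of the 3 red blood cell markers, 1 was above and 2 were below 0 (median -0.09). No marker passed after adjustment, and the part of the markers in the members' values was not tested. The 3 comparisons share pools, so that they are not independent of each other.

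Of the 6 members at the ends of this comparison, 5 were nearer 0 without the LDPR 2/SDPS 4 array, and LOC421446 was farther from 0. These members were picked by fitted values that this array helps set, which favours such a shift. LDPR pool 2 was also the channel with the fewest probes above empty spots, but the 50 tested members lay above them in all 12 channels. The part of signal quality was not tested. MRPL50 read 10.61, 10.09, 10.37 and 10.83 in SDPS and 10.48, 9.95, 10.42 and 9.83 in LDPR pools 1 to 4, with overlap. Its log2 fold change was -0.30 (SE 0.15, adjusted p = 0.578 by limma), with direct arrays at 0.10 and -0.88. Without that array it was 0.00.

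MRPL37, a mitochondria-specific protein of the large subunit, had -0.27 (SE 0.13) by probe RIGG15894, with direct arrays at 0.12 and -0.81, and -0.05 without that array. It read 7.16, 7.82, 6.98 and 7.18 in SDPS and 7.09, 6.37, 6.86 and 7.65 in LDPR pools 1 to 4, with LDPR pool 2 lowest. MRPS9, in the head of the small subunit, had -0.19 (SE 0.13), with direct arrays at 0.38 and -0.84, and 0.02 without it. It read from 7.17 to 7.63 over the 4 SDPS pools and 7.55, 6.66, 6.91 and 7.65 in LDPR pools 1 to 4, again with LDPR pool 2 lowest.

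On the higher side LOC421446 had 0.27 (SE 0.12, adjusted p = 0.535 by limma), with direct arrays at 0.06 and 0.23, and 0.40 without that array. MRPS35 had 0.23 (SE 0.11) with direct arrays at -0.09 and 0.68, and 0.12 without it. MRPL22, which lines the exit tunnel, had 0.17 (SE 0.11) with direct arrays at -0.10 and 0.49, and 0.04 without it. MRPL22 read 6.06, 6.72, 5.72 and 5.59 in SDPS and 5.62, 6.08, 5.78 and 6.04 in LDPR pools 1 to 4, and the groups overlapped.

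LOC421446 read 8.48, 8.78, 8.86 and 7.99 in SDPS pools 1 to 4, 8.69, 9.18, 8.82 and 8.67 in LDPS and 8.92, 8.22, 8.71 and 9.20 in LDPR. SDPS pool 4 was the lowest, and the groups overlapped. On both direct arrays of this comparison 8 members were above 0 and 9 below 0, where 17.6% and 18.7% of all probes were.

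Genes with several probes showed how far probes of 1 gene gave the same ratios. The MRPL20 probes RIGG01030 and RIGG03515 had r = 0.98 over the 6 arrays, while RIGG00834 had r = 0.07 and 0.21 with them. The 2 probes of MRPS10, in the head of the small subunit, had r = 0.87. Those of MRPL37 had r = 0.50 and those of MRPL27, which in bacteria reaches towards the peptidyl transferase centre, r = 0.40. These r are descriptions over 6 arrays that share pools of 3 groups.

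In fitted values, MRPS10 gave 0.12 and 0.17 for LDPR against LDPS and MRPL27 gave 0.03 and 0.02. MRPL37 probe RIGG00320 gave -0.18 and RIGG15894 -0.12 in that comparison, while in LDPS against SDPS they differed in sign, at 0.06 and -0.16. MRPL20 probes RIGG01030 and RIGG03515 both gave 0.21 for LDPR against LDPS, and RIGG00834 gave 0.04.

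**Figure D4:**
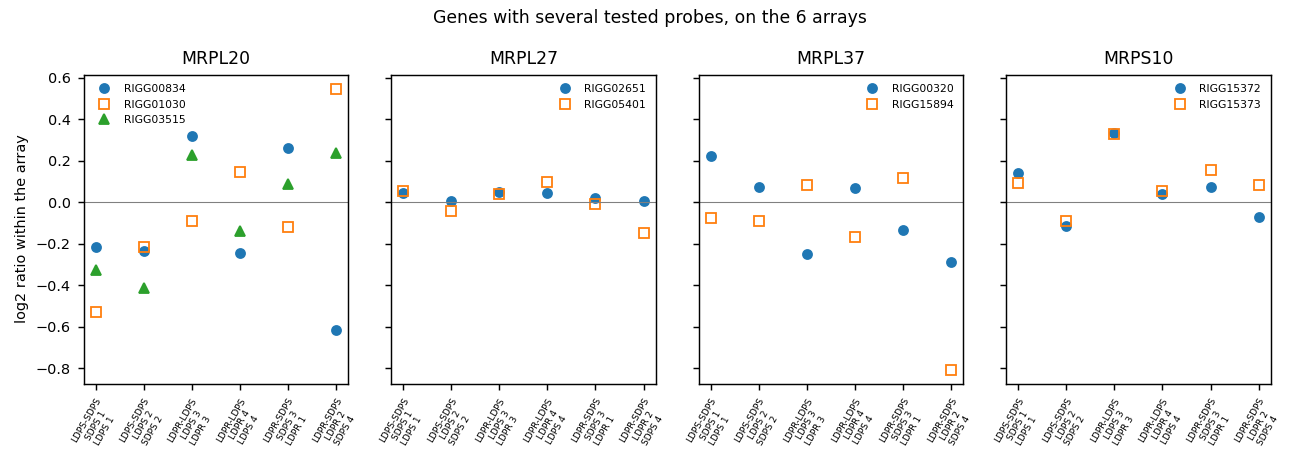
Log2 ratio (y axis) on each of the 6 arrays (x axis, named by comparison and pools) for the tested probes of MRPL20, MRPL27, MRPL37 and MRPS10. The probes of MRPS10 lie close together, and on the LDPR 2/SDPS 4 array the MRPL20 probe RIGG00834 (-0.61) lies far from RIGG01030 (0.55).

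Across the 6 arrays the ratios of members, with the same dye over the other on every array, varied together little. The mean pairwise r was 0.08 over 50 members, 0.06 within the large subunit and 0.21 within the small subunit. It was 0.29 over 48 cytosolic ribosomal protein probes and 0.00 over all probes complete on the 6 arrays. The cytosolic ribosome had 41 of 48 probes below 0 for LDPS against SDPS (median -0.11), 38 above 0 for LDPR against LDPS (median 0.08) and 27 below 0 for LDPR against SDPS (median -0.02). The 36 probes of the respiratory chain and ATP synthase, chosen by symbol, had medians of 0.01, -0.03 and -0.01 in that order.

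Other genes of mitochondrial gene expression were looked up by symbol, and 0 passed in any comparison. Of 14 translation factors 7 were tested, with medians of 0.02, 0.10 and 0.13 in the order used above. Their lowest p-values for LDPR against LDPS were those of MTFMT (0.24), which formylates the initiator tRNA, and GUF1 (-0.17), an elongation factor. For LDPR against SDPS they were those of MTFMT (0.18) and the release factor MTRF1 (0.13), and for LDPS against SDPS those of GUF1 (0.16) and MTFMT (-0.06).

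Of 27 tRNA synthetases and tRNA-modifying enzymes 9 were tested, with medians of 0.02, -0.07 and -0.05. FARS2, the phenylalanyl-tRNA synthetase, had a log2 fold change of 0.47 (SE 0.14, adjusted p = 0.410 by limma) for LDPR against SDPS, 0.25 for LDPR against LDPS and 0.22 for LDPS against SDPS. AARS2, the alanyl-tRNA synthetase, had -0.28 (SE 0.10, adjusted p = 0.467 by limma) for LDPR against SDPS and -0.26 for LDPR against LDPS. HARS2, the histidyl-tRNA synthetase, had 0.16 for LDPS against SDPS.

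Of 38 genes of transcription, rRNA modification and ribosome assembly 18 were tested, with medians of 0.01, 0.03 and 0.05. TFAM, which packs mitochondrial DNA and takes part in its transcription, had 0.28 (SE 0.11, adjusted p = 0.306 by limma) for LDPR against LDPS. The rRNA methyltransferase gene FTSJ2 had -0.25 in that comparison. NSUN4, another rRNA methyltransferase, had -0.21 for LDPR against SDPS and -0.10 for LDPS against SDPS. PTCD3, a pentatricopeptide repeat protein bound to the small subunit, had 0.21 for LDPR against SDPS. MTERFD1 had 0.27 (SE 0.10, adjusted p = 1.0 by limma) for LDPS against SDPS.

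Of 14 regulators of mitochondrial biogenesis 5 were tested, with medians of -0.04, 0.12 and 0.04. SSBP1, which binds single-stranded mitochondrial DNA, had 0.23 for LDPR against LDPS, 0.08 for LDPR against SDPS and -0.15 for LDPS against SDPS. The transcription factor GABPA had 0.16 for LDPR against LDPS and 0.12 for LDPR against SDPS, and the transcription factor YY1 had -0.14 for LDPS against SDPS.

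Of 21 import genes 7 were tested, with medians of -0.06, 0.05 and -0.01. PMPCA, a subunit of the peptidase that removes import signals, had -0.27 (SE 0.11, adjusted p = 0.506 by limma) for LDPR against SDPS and -0.17 for LDPS against SDPS. TIMM17A, of the inner membrane translocase, had -0.18 and -0.15 in the same comparisons. For LDPR against LDPS the chaperone HSPA9 had 0.13 and TIMM8A, an intermembrane space chaperone, had -0.10.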

How the data were processed

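Per the file headers, the authors read spot intensity with BlueFuse for Microarrays 3.6 (build 7145). Their files give 1 intensity for each spot in each dye and no background of its own. Spots with a deposited confidence score under 0.1, as the authors' software graded them, were treated as missing. The authors' deposited value table of log2 intensity, of normalisation not given in the sources used here, served as an alternative. Both samples of an array had identical files, so each array was read once.

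Within-array log2 ratios of chicken probes were normalised by loess (span 0.3, 4 iterations) and fitted with limma 3.58.1 in R 4.3.3 over 6 arrays, with 3 groups and a dye intercept. Probes on at least 5 arrays, 18012 in all, were tested, two-sided, with Benjamini-Hochberg adjustment and a threshold of 0.05. Standard errors are moderated towards the spread over all probes, with a prior of 6.64 degrees of freedom. Levels per pool were rebuilt from the normalised ratio and the quantile-normalised mean of each array, and carry the spot's brightness on that array. The fit was tested on simulated data for LDPS against SDPS over 18012 probes. In 1 run 50 probes each were changed by 0.5, 1, 1.5 and 2 (log2). The fit called 12 of 50 changed by 0.5, 49 of 50 changed by 1 and all of those changed by more, with 5 false calls. Strongly changed probes ease the adjustment for the others, so the 12 of 50 holds only beside such changes.

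Named in full in each comparison were members with an adjusted p under 0.05, up to 8 with an unadjusted p under 0.05, the 3 highest and the 3 lowest fold changes, and the genes with several probes. For other mitochondrial lists these were the 2 lowest p-values. The members, lists and rules were chosen with earlier results of these data known. Same-numbered LDPS and SDPS pools deviated together, with correlations of 0.62 and 0.65 on shared arrays and of 0.25 and 0.27 on different arrays, while pools of different number had -0.46 to 0.23. Same-numbered LDPR and SDPS pools, none on a shared array, had -0.44 to -0.18, and LDPR and LDPS pools had 0.34 and 0.72 on shared arrays and -0.13 and -0.07 on others. Pools of different number on different arrays reached 0.43 for LDPR and LDPS and 0.47 for LDPR and SDPS. These values lie above the 0.25 and 0.27 of same-numbered LDPS and SDPS pools. That the numbers pair LDPS with SDPS pools only was thus an assumption, which these correlations do not settle. For 2 of the 4 pairs sharing an array and sharing a number cannot be told apart. Alternatives covered normalisation, filters, dye term, arrays used, separate channels, the authors' table and leaving out each array.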

Additional observations from a re-analysis of the deposited data

How the results depend on the processing

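No member passed under any alternative that could be fitted (0 called in each comparison), and leaving out dim probes removed none of the 18012. The lowest adjusted p-values over the alternatives were 0.0512 for MRPL10 and 0.0521 for MRPS6 in LDPR against LDPS, both by limma on separate channels with the replicate block. This block used the pool numbers of all 3 groups, and so also set LDPR pools beside same-numbered SDPS and LDPS pools. The numbers were assumed to pair LDPS with SDPS pools only. With the block, 7, 7 and 3 members had an unadjusted p under 0.05 in LDPS against SDPS, LDPR against LDPS and LDPR against SDPS. In the ratio fit, which has neither the block nor separate channels, the counts were 0, 5 and 0. The shares of all probes were 11.4%, 24% and 12.7% with the block and 4.33%, 13.9% and 9.37% in the ratio fit. Separate channels without the block gave 7.04%, 19.6% and 14.5% of all probes. Over all alternatives the member counts ran from 0 to 7, from 0 (direct arrays only) to 8, and from 0 to 4. That of any difference ran from 0 to 9, against 2 in the ratio fit. The shares of all probes ran from 2.02% to 11.4%, from 2.29% (direct arrays only) to 24% and from 1.1% to 15.8%. For any difference the share ran from 3.91% to 21.3%, against 10.7% in the ratio fit. The cause of the spread in counts was not tested. The member median for LDPR against LDPS was 0.021 with median centring, 0.055 with print-tip loess, 0.029 with the replicate block and from 0.028 to 0.068 with 1 array left out. With 1 array left out it ran from -0.075 to -0.035 for LDPS against SDPS and from -0.01 to 0.03 for LDPR against SDPS. MRPS9 in LDPR against SDPS ran from -0.34 to 0.022 with 1 array left out, the latter without the LDPR 2/SDPS 4 array (-0.84). The fold changes of MRPL10 (-0.42 to -0.30) and MRPS6 (0.23 to 0.39) in LDPR against LDPS kept their sign in every alternative. Over all 18012 probes the main counts called were 0, 3 and 0, and on separate channels, over 16748 probes, they were 5, 560 and 50 without the replicate block and 26, 1042 and 13 with it.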

Other observations

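The median deviation of the pool levels of the 50 members from their own means was 0.26 (log2) in SDPS pool 2 and 0.22 in LDPS pool 2, which shared an array. It was -0.25 in LDPR pool 2 and -0.16 in SDPS pool 4, which shared another. The other 8 pools lay between -0.11 and 0.06. Over all probes complete on the 6 arrays the same medians ran from -0.06 to 0.08. The quantile normalisation of the array means tends to hold these near 0, so they are no baseline for the members. The levels carry the spot's brightness on its array. A shift shared by both pools of an array cannot be told apart from the array.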
